A study of Homo sapiens with 29 samples.

Results

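The comparison described here sets 22Rv1 cells in which FOXA1 was induced and then exposed to a covalent probe against the same cells with neither induction nor probe. The groups compared are 4 of the 29 ATAC-seq libraries of the series: 2 of the WT-FOXA1 line given doxycycline (Dox) with WX-02-23 at 20 µM, and 2 of the same line given DMSO without Dox. 22Rv1 is a human prostate cancer cell line. Every library of the WT-FOXA1 line came from cells engineered to overexpress Y36C-PHF5A and to carry Dox-inducible WT-FOXA1, so both groups share the PHF5A variant and carry the FOXA1 transgene. 22Rv1 also expresses its own FOXA1, so the uninduced cells are not cells without the factor. DMSO was used at 0.1%, and probe and DMSO were applied for 3 h. The labels do not give how long Dox was applied, the promoter that drives Y36C-PHF5A, or whether the line is 1 clone. They also do not say whether replicates came from separate cultures, so a spread between replicates may be technical. The induced vehicle, 2 libraries of the line with Dox and DMSO, served as the second reference. The other libraries served to look up regions found in this line, and the parental ones also to define regions looked up in it. In the WT-FOXA1 line 2 more received Dox and 100 nM PladB, and 6 came from a line with Y36C-PHF5A and Dox-inducible C258A-FOXA1. That line received Dox with DMSO, 20 µM WX-02-23 or 100 nM PladB, in 2 libraries each. Parental 22Rv1 cells gave 15 libraries, 3 each with DMSO, 20 µM WX-02-23, its stereoisomer WX-02-43 at 20 µM, and PladB at 10 nM or 100 nM. PladB is pladienolide B, a ligand of the splicing factor SF3B1, and C258A removes the cysteine that WX-02-23 engages. The groups of the main comparison differ in Dox and in probe at once.

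ATAC-seq reads out open chromatin, because a transposase inserts sequencing adapters where DNA is not wrapped tightly in nucleosomes. FOXA1 is a forkhead pioneer factor that binds nucleosomal DNA and opens enhancers, and in prostate cells it prepares sites for the androgen receptor. WX-02-23 is a stereoprobe, a small molecule of defined stereochemistry known to react covalently with C258 of FOXA1. Y36C-PHF5A is known to reduce the effect of such ligands on the spliceosome. Treated cells could show the sites of uninduced cells again, keep those of induced cells, or show sites that neither vehicle state has. These outcomes can occur together, and the lists can show each of them in part. No sequence is printed, because no genome of build hg19, the build of the lists, was used here. Genes near the regions were not analysed for the same reason.

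The probe-treated lists were about as long as the uninduced ones. With Dox and WX-02-23 they held 67815 and 62832 peaks, and without Dox they held 69814 and 67195. The groups overlapped, since the longer treated list exceeded the shorter uninduced list. The mean difference was -3181 peaks (SE 2815, n = 2 each), and the exact permutation test (two-sided) gave p = 0.667, where 2 against 2 libraries allow no p below 0.333. The induced vehicle lists were longer than all 4, at 88140 and 85009 peaks. Peaks of the treated lists covered 23.6 and 21.8 Mb, and those of the uninduced lists 26.1 and 24.9 Mb. Total reads per library are unknown here. As a relative measure of depth, the peak caller's background level in reads per base was derived from each list's fold enrichments and p-values. It was 0.903 and 1.256 in the treated lists, 0.809 and 0.723 in the uninduced lists, and 0.869 and 0.844 in the induced vehicle lists. The treated libraries thus had the highest background of the 3 groups and, on average, the fewest peaks. Their median fold enrichment, as the authors gave it, was 6.84 and 6.58 against 7.64 and 7.80 without Dox. The part of this difference in background in the results that follow was not tested, and lists cut to 1 length by p-value are given where they move a value.

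Similar length did not mean the same sites. Similarity was measured as the Jaccard index, which divides the bases that both lists cover by those that at least 1 of them covers. The 4 pairs of a treated and an uninduced list had indices of 0.582, 0.587, 0.570 and 0.578. All 4 lay below the index of the treated replicates, 0.665, and that of the uninduced replicates, 0.714. The mean within groups exceeded the mean between them by 0.110. Over the 4 pairs between groups the SD was 0.0070. These pairs share libraries, so that SD is not an error of the difference between the means. This difference was not tested, since 2 against 2 libraries cannot pass a threshold of 0.05.

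Against the induced vehicle, the treated lists had a mean index of 0.590, with a range from 0.570 to 0.609 over 4 pairs. The mean with the uninduced minus that with the induced vehicle was -0.0107, and the ranges of the 2 kinds of pair overlapped. This difference was -0.0028 without replicate 2 of Dox with DMSO and -0.0186 without replicate 1. With all 6 lists cut to 62832 peaks the difference was -0.0385 and the ranges separated, at 0.617 to 0.638 with the induced and 0.584 to 0.595 with the uninduced vehicle. The 2 vehicle states resembled each other more than either resembled the treated cells, with a mean of 0.621 over 4 pairs, or 0.648 with lists of 1 length. In both versions the treated lists stood apart from both vehicle states by more than replicates stood apart.

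**Figure D1:**
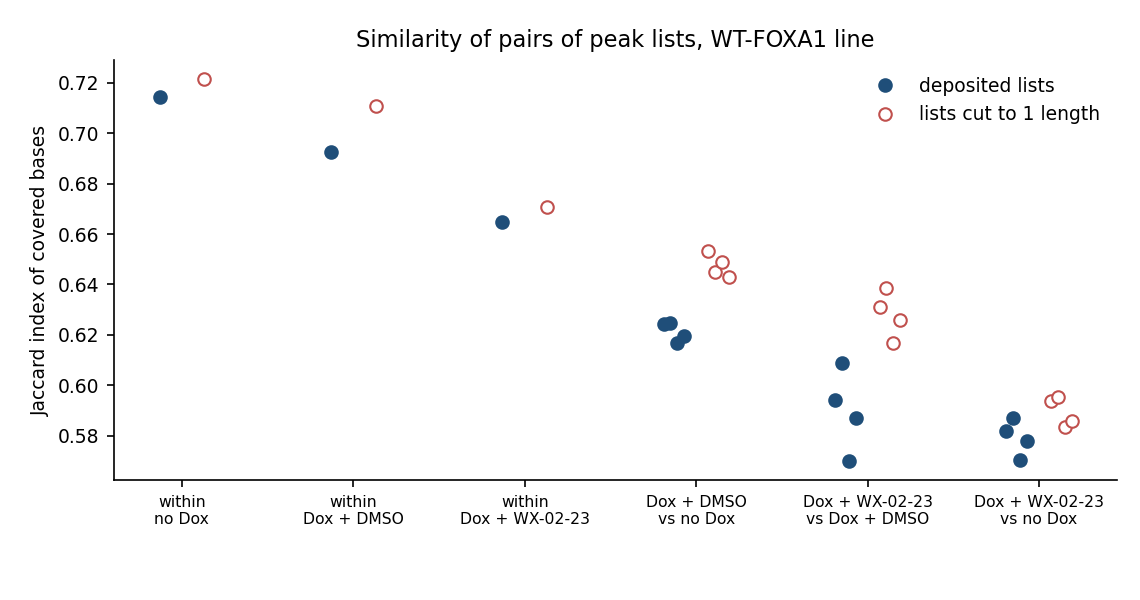
Jaccard index of covered bases (y axis) for pairs of peak lists of the WT-FOXA1 line (x axis: the groups of the pair). Each point is 1 pair of libraries, filled for the deposited lists and open for lists cut to 62832 peaks. The treated and uninduced pairs lie from 0.570 to 0.587 in the deposited lists, below the replicates of each group at 0.665 and 0.714.

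Which peaks differed depended on their strength. Peaks of each list were ranked by the authors' p-value and divided into 4 equal parts. Among the strongest part of the treated peaks, 98.6% were held by an uninduced list on average and nearly 100% by the treated replicate (range 99.994% to 100%). Among the strongest part of the uninduced peaks, 99.9% were held by a treated list. The strong sites of this line were thus open in both groups. In the next part down, the uninduced lists held 86.7% of the treated peaks (range 85.4% to 87.9% over 4 pairs), against 98.2% for the treated replicate. In that part the treated lists held 92.9% of the uninduced peaks (range 91.1% to 94.5%), against 99.5% for the uninduced replicate. In the weakest part the uninduced lists held 52.9% of the treated peaks, close to the 54.2% that the treated replicate held. The treated lists held 33.3% of the weakest uninduced peaks, where the uninduced replicate held 59.6%.

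**Figure D2:**
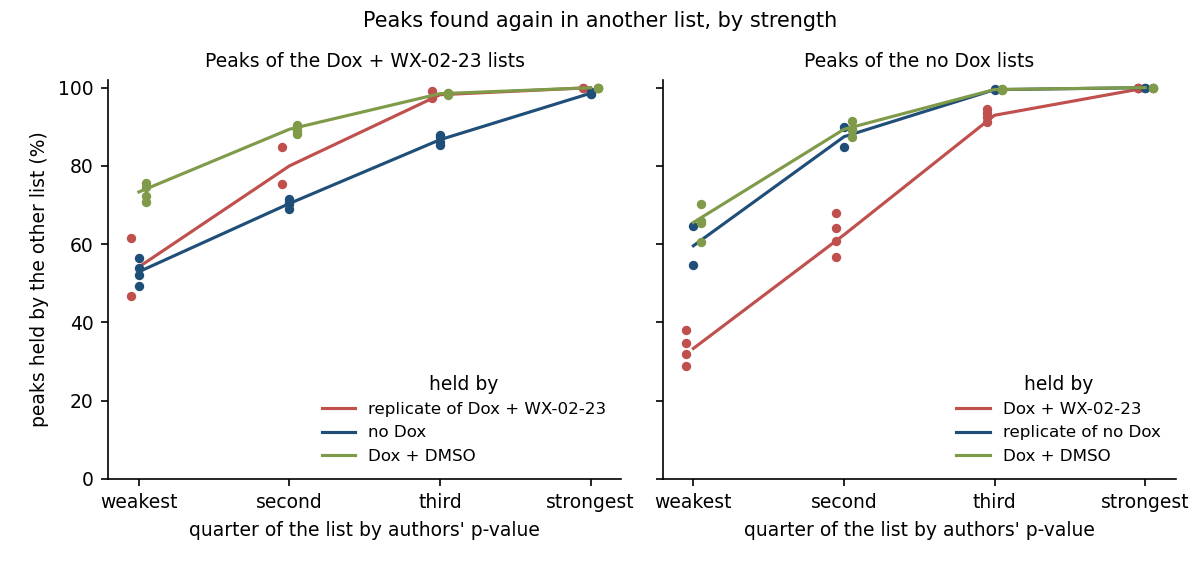
Percentage of the peaks of a list that another list holds (y axis) by strength of the peak in its own list (x axis), for treated (left) and uninduced lists (right). Points are ordered pairs of libraries and lines are their means. In the third part by strength, treated peaks were held by the treated replicate in 98.2% and by uninduced lists in 86.7%.

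Merging the peaks of the 4 lists gave 93356 regions, of 166696 in a merge of all 29 lists. All 4 lists held 42399 of them, or 45.4%. Both treated and neither uninduced library held 7851 regions, called opened here. They make up 8.41% of the regions. Both uninduced and neither treated library held 7569 regions, called closed, which make up 8.11%. The other regions varied between replicates: 12522 were held by 1 uninduced library only, 9973 by 1 treated library only, 3565 by 1 of each, 7582 by both uninduced and 1 treated, and 1895 by both treated and 1 uninduced. The counts were of similar size in the deposited lists, but not under every setting. Among peaks with a fold of at least 6 there were 3455 opened and 7598 closed regions. Without replicate 1 of WX-02-23 there were 11903 opened and 12460 closed regions, and without replicate 2 there were 13988 and 10359. Without replicate 1 of the uninduced group there were 9040 opened and 13229 closed regions, and without replicate 2 there were 8612 and 15084. Fewer libraries raise such counts by construction, and which of the 2 sets was larger depended on these settings.

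The opened regions lay mostly in the weaker part of the treated lists. By the authors' p-value their median percentile was 33.5 in the treated lists, with quartiles at 20.6 and 49.1, and 157 of them ranked above percentile 75. The closed regions had a median percentile of 23.3 in the uninduced lists, and 5 ranked above 75. Regions held by all 4 lists had a median percentile of 64.7 in the treated and 68.0 in the uninduced lists. Opened regions were wider than closed ones, with medians of 319 and 264 bp, and shared regions had a median of 467 bp.

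The opened set was then looked up in the induced vehicle libraries, which did not choose these regions. They held 77.8% and 78.5% of it, close to the 80.04% and 78.1% that they held of all 93356 regions. Both held 70.8% and neither held 14.4%. After all lists were cut to 1 length, of 7611 opened regions both held 50.3% and neither held 29.7%. Of the closed set they held 76.3% and 71.6%, below their share of all regions. Both induced vehicle libraries held 60.3% of them and neither held 12.5%. Of 5867 closed regions from lists of 1 length, both held 33.4% and neither held 33.6%, so the make-up of the closed set depended on list length. Of the regions shared by all 4 lists, both induced vehicle libraries held 98.6%.

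The sites that Dox gained and lost under DMSO were then looked up in the treated libraries, which had no part in choosing them. In a merge of the 6 lists of the line into 109421 regions, both Dox and neither uninduced DMSO library held 13312 regions (12.2%), called Dox-gained. The reverse held for 1213 regions (1.11%), called Dox-lost. These comparisons share the uninduced libraries with the main one. Of the Dox-gained regions, both treated libraries held 5534 (41.6%), 1 of 2 held 2842 (21.3%) and neither held 4936 (37.1%). Lists of 1 length gave 6283 such regions, of which both held 60.7% and neither held 20.3%. Of the Dox-lost regions, both treated libraries held 70 (5.77%) and neither held 943 (77.7%). From lists of 1 length these were 14.4% and 58.7% of 3361. Of the 52117 regions in all 4 vehicle lists, both treated libraries held 79.5% and neither held 8.54%. Singly, the treated libraries held 55.2% and 49.3% of the Dox-gained and 15.2% and 12.9% of the Dox-lost regions. Of all 109421 regions they held 58.9% and 54.3%. Their share of the Dox-gained regions was thus near, and slightly below, their share of all regions. Few of the Dox-lost regions had a peak in treated cells. The sizes of both sets and these shares depended on list length.

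**Figure D3:**
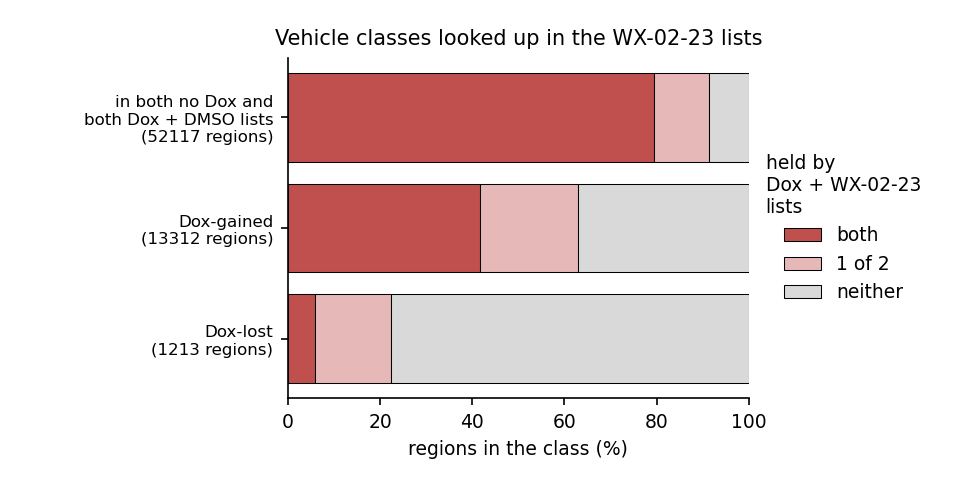
Stacked bars give the percentage of regions (x axis) of 3 classes set by the vehicle lists (y axis) that both, 1 or neither of the treated lists held. Both treated lists held 79.5% of the regions open in all 4 vehicle lists, 41.6% of the Dox-gained and 5.77% of the Dox-lost regions.

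Retention of Dox-gained sites followed their strength in the induced vehicle. Kept regions had a median percentile of 47.1 in the Dox with DMSO lists and a median width of 402 bp, and missing regions one of 22.1 and a width of 269 bp. Among Dox-gained regions above percentile 75, both treated libraries held 98.4% of 372. Between percentiles 50 and 75 they held 79.0% of 2672, between 25 and 50 they held 40.6% of 5259, and up to 25 they held 18.4% of 5009. Regions open in all 4 vehicle lists were retained somewhat more often at the same rank, with 87.4% between percentiles 50 and 75 and 48.2% between 25 and 50. Other Dox-treated libraries also held the weaker Dox-gained regions less often. Both PladB libraries of the line held 63.6% between percentiles 25 and 50. In the C258A-FOXA1 line the pair of DMSO libraries held 67.8%, that of WX-02-23 65.4% and that of PladB 52.2%.

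The share of Dox-gained regions with a peak was 55.2% and 49.3% in the 2 treated libraries. In the 8 other Dox-treated engineered libraries that did not choose the set, it ranged from 59.1% to 80.6% with a median of 68.3%. Both treated libraries lay below all 8. They were also low over all 109421 regions, of which they held 58.9% and 54.3%, while the 8 others held 60.8% to 73.7%. The part of this lower overall share in the Dox-gained and Dox-lost differences was not tested. The difference of means was -16.7 percentage points (SE 4.09). The two-sided exact permutation test over 45 arrangements gave p = 0.0444, or 0.0885 after Benjamini-Hochberg adjustment over 7 tests. The Dox-lost regions held a peak in 12.9% and 15.2% in the treated libraries and in 21.1% to 47.3% (median 34.8%) in the 8 others, again without overlap. That difference was -20.3 points (SE 3.72). By the same exact permutation test p was 0.0222, the smallest these 10 libraries allow, or 0.0778 after adjustment. Neither passed the threshold. With all 14 lists at 1 length the differences shrank to -3.35 and -2.67 points, with adjusted exact permutation p of 0.389 for both. The 8 other libraries differ among themselves in line and agent.

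A smaller set of regions was open in treated cells and in neither vehicle state. Both treated libraries and none of the 4 vehicle libraries of the line held 1133 of the 109421 regions, or 1.04%. The reverse set, held by all 4 vehicle libraries and by neither treated library, numbered 4449 regions, or 4.07%. Each pair of libraries had regions of its own in the 6 lists. Only the uninduced pair held 943 regions, and only the pair with Dox and DMSO held 4936. The 1133 regions of the treated pair lay between these counts. At 1 list length the counts were 2259 opened and 1903 closed regions, so which of the 2 was larger depended on list length. Without replicate 1 or 2 of WX-02-23 the opened count was 2962 or 3862, and without replicate 2 of Dox with DMSO it was 1742. Without replicate 1 of WX-02-23 the closed count was 8464. The opened count was 509 among peaks with a fold of at least 6. The opened regions had a median percentile of 22.6 in the treated lists, and none of them ranked above percentile 75. The closed regions had medians of 27.3 in the uninduced and 32.4 in the induced vehicle lists.

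Parental 22Rv1 cells, which the labels give no transgene, gave libraries independent of these sets. Their peak names differ from those of the engineered lines, and whether the lists were processed together is not known here. By the labels parental cells also lack Y36C-PHF5A, and the part of this difference in the parental values was not tested. Of the 1133 regions opened against both vehicle states, 37.5%, 38.3% and 39.9% held a peak in the 3 parental WX-02-23 libraries. The 12 parental libraries with DMSO, the stereoisomer WX-02-43 or PladB held 11.4% to 23.1%, with a median of 15.8%. Of all 109421 regions, the WX-02-23 libraries held 69.2% to 71.3% and the 12 others 63.4% to 72.1%. No library of the others reached the WX-02-23 libraries. The 12 others differ among themselves in agent or dose, so they are not replicates of 1 condition, here and at the closed set below. The difference was 22.3 points (SE 1.28). The two-sided exact permutation test gave p = 0.0022, the smallest that 3 against 12 libraries allow, or 0.0154 after Benjamini-Hochberg adjustment. From lists of 1 length it was 16.95 points, with an adjusted exact permutation p of 0.0077. Against parental DMSO alone, at 17.6% ± 1.6 (SD, n = 3), the difference was 21.0 points and all 3 treated libraries were higher. The exact permutation p was then 0.1 (two-sided), the smallest that 3 against 3 allow. Without any 1 of the WX-02-23 libraries the adjusted exact permutation p was 0.0769, over fewer arrangements. At 20 µM in parental cells the stereoisomer WX-02-43 gave 20.3% ± 4.1 (SD, n = 3) and WX-02-23 gave 38.6% ± 1.2 (SD, n = 3).

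The 4449 regions closed against both vehicle states were mostly open in parental cells, also with the probe. They held a peak in 80.6%, 84.2% and 85.0% in the parental WX-02-23 libraries and in 80.8% to 94.0% (median 89.6%) in the 12 others, with overlap. The difference was -5.47 points (SE 1.79), and the two-sided exact permutation test gave p = 0.0505, or 0.0885 after adjustment. Cut to 1 length, the set shrank to 1903 regions and the difference became -16.5 points, with an adjusted exact permutation p of 0.0077. Without replicate 3 of parental PladB at 100 nM it was -6.19 points, with an adjusted exact permutation p of 0.0481. It was -2.45 points without replicate 1 and -3.30 points without replicate 2 of the treated WT-FOXA1 libraries. PladB at 100 nM gave 83.3% ± 2.3 (SD, n = 3) in parental cells, the same level as WX-02-23 at 83.3% ± 2.3 (SD, n = 3). Of all regions, PladB at 100 nM held 64.3% and WX-02-23 held 70.2% on average. The equal shares of the closed set thus stood beside unequal shares of all regions.

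The C258A-FOXA1 line gave a further look at both sets with 2 libraries per group and no test. The opened regions held a peak in 24.2% ± 3.2 after DMSO, 42.0% ± 9.2 after WX-02-23 and 13.2% ± 2.6 after PladB (SD, n = 2 each). Of all regions these groups held 70.0%, 67.9% and 62.6% on average. Both WX-02-23 libraries of that line, at 35.5% and 48.5%, lay above both DMSO libraries, at 22.0% and 26.5%. The closed regions held one in 80.7% ± 2.8 after DMSO, 62.3% ± 16.0 after WX-02-23 and 68.6% ± 2.2 after PladB. With WX-02-23, replicate 1 held 51.0% of the closed set and 62.4% of all regions, and replicate 2 held 73.6% and 73.5%. The C258A-FOXA1 cells still carry endogenous FOXA1.

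**Figure D4:**
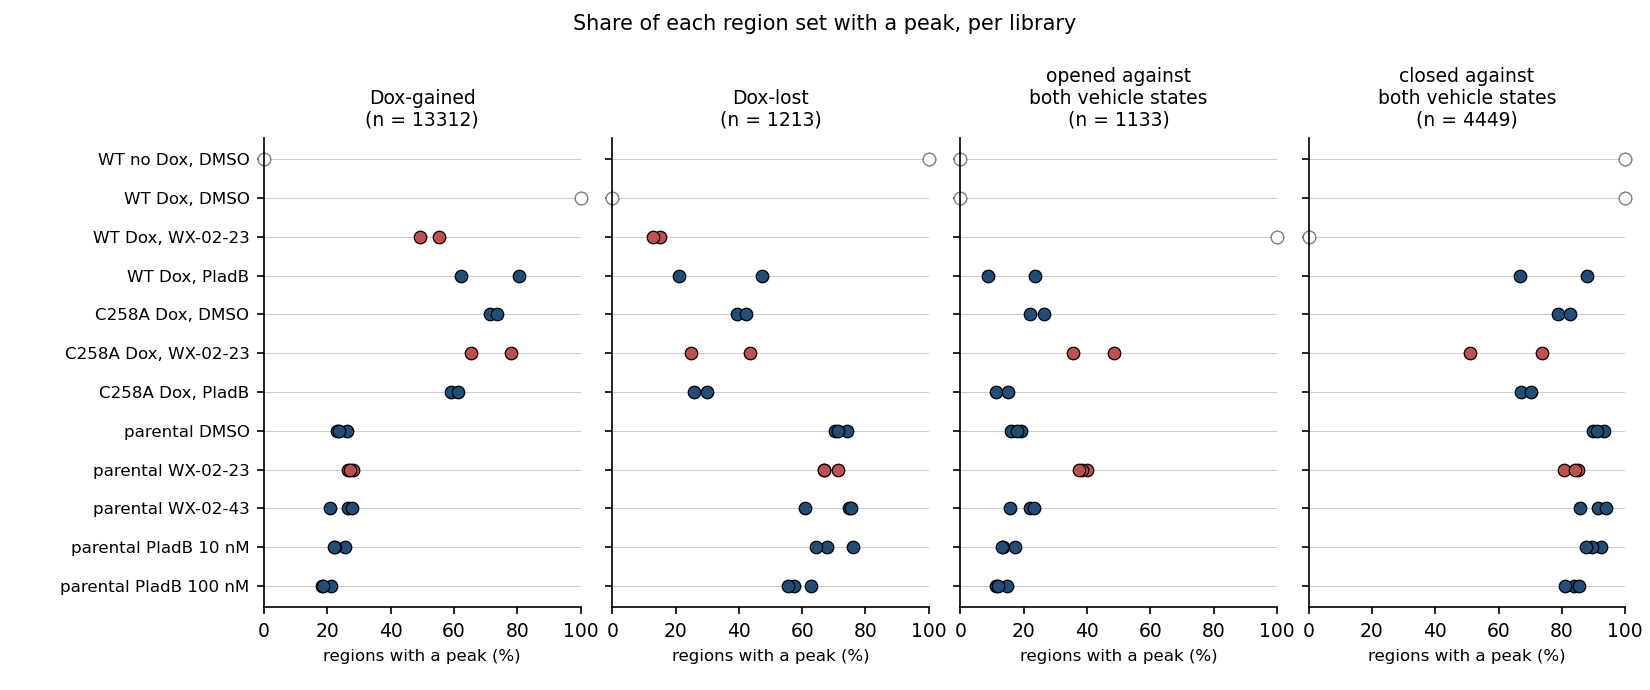
Percentage of regions with a peak (x axis) in each of the 29 libraries, by group (y axis), for 4 region sets of the WT-FOXA1 line. Each point is 1 library, WX-02-23 is red, and open points mark libraries that chose the set. In the parental groups the opened set holds a peak in 37.5% to 39.9% with WX-02-23 and in 11.4% to 23.1% in the other 12 libraries.

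The same question was asked from the parental side, with sets that none of the 4 compared libraries had chosen. In parental cells all 3 WX-02-23 and no DMSO library held 2259 of 124871 regions (1.81%), and the reverse held for 1472 (1.18%). Of the gained set, the uninduced libraries held 6.11% and 7.97%, and the treated libraries held 27.4% and 32.1%. Of all 124871 regions the uninduced libraries held 49.5%, the induced vehicle 54.6% and the treated libraries 41.7% on average, so the treated libraries held the fewest overall. The difference was 22.7 points (SE 2.54). The induced vehicle held 22.2% and 25.6% of this set, so with Dox alone the level already lay nearer to the treated than to the uninduced cells. The difference between treated and uninduced libraries was 14.6 points without replicate 2 of parental WX-02-23. Of the lost set, the uninduced libraries held 29.01% and 32.1%, the induced vehicle 37.0% and 40.0%, and the treated libraries 5.10% and 6.39%. The difference from uninduced cells was -24.8 points (SE 1.66), and -38.8 points from lists of 1 length. For both sets the exact two-sided permutation p was 0.333, the smallest that 2 against 2 allow, and 0.389 after adjustment. In the lost set, treated cells thus lay below both vehicle states, by more than over all regions. In the gained set they lay above both, by less from the induced vehicle. The C258A-FOXA1 line held 34.4% of the gained and 21.4% of the lost set with WX-02-23, and 19.5% and 36.2% with DMSO. These shifts were thus not particular to the WT-FOXA1 line. In parental cells WX-02-43 held 23.3% of the gained and 69.3% of the lost set, and PladB at 100 nM held 15.2% and 43.4%. The differences from the induced vehicle were not tested.

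Opened and closed regions differed in how they were used in parental cells. Of the 7851 opened regions, 65.1% held no peak in any of the 15 parental libraries and 6.20% held one in all 15. Of the 7569 closed regions, 1.55% held none and 46.3% held one in all 15. Of the regions shared by all 4 lists, 93.7% were held by all 15. Dox-gained regions, which were set without the probe, resembled the opened ones: 60.1% held no parental peak and 8.04% held one in all 15. Of the Dox-lost regions, 4.95% held none and 27.1% held one in all 15. Parental WX-02-23 libraries held 28.1% ± 0.57 of the opened set and parental DMSO libraries 17.5% ± 1.3 (SD, n = 3 each). They held 78.9% ± 2.5 and 86.3% ± 2.0 of the closed set (SD, n = 3 each). Of all regions merged from the 4 lists they held 77.9% and 76.8% on average.

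The chromosomes shared the closed regions evenly and the opened regions unevenly. Over chromosomes 1 to 22 and X, the closed share of a chromosome's regions ran from 7.07% on chromosome 19 to 8.70% on chromosome 10. The opened share ran from 2.30% on chromosome 19, where 85 of 3692 regions were opened, to 12.3% on chromosome 4, where 613 of 5000 were. Chromosomes 22, 17 and 16 followed chromosome 19 from below, at 4.21%, 4.36% and 4.75%, and chromosomes 13, 21 and 7 stood at 12.1%, 11.2% and 11.02%. Chromosome 19 is the most gene-dense human chromosome, and chromosomes 4 and 13 are gene-poor. In lists of 1 length the opened share again ran from 2.45% on chromosome 19 to 12.7% on chromosome 4, and the closed share from 5.38% to 7.63%. Dox-gained regions had the same end, with 4.30% on chromosome 19 and 17.5% on chromosome 13. The parental WX-02-23 gained set, from other libraries, ran from 0.772% on chromosome 19 to 2.33% on chromosome 4. These shares are descriptions, since regions of 1 chromosome are not replicates.

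**Figure D5:**
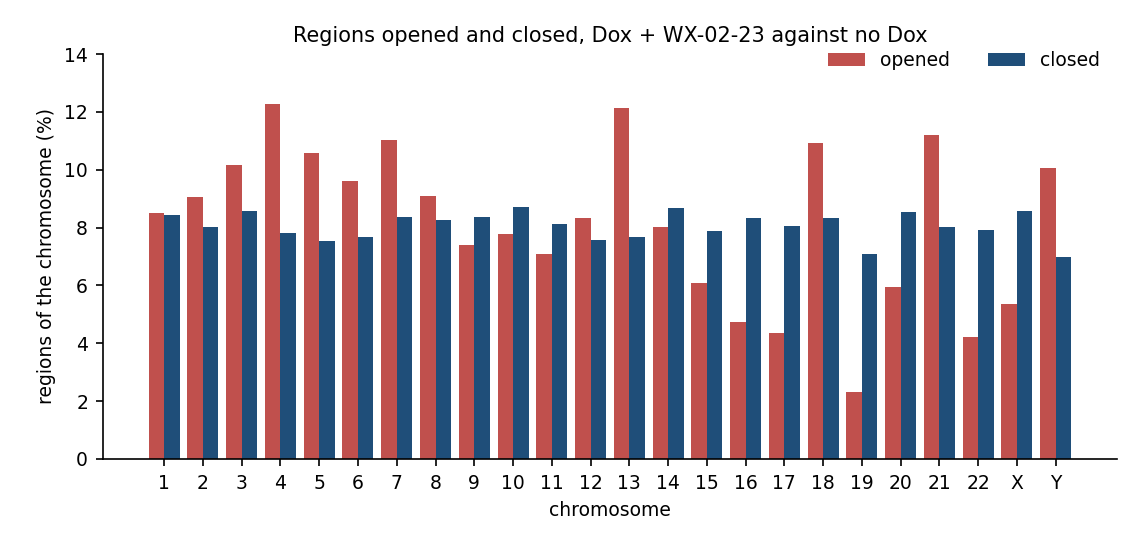
Percentage of the merged regions of each chromosome (x axis) that were opened or closed in treated against uninduced cells (y axis). Closed shares stay between 7.07% and 8.70% on chromosomes 1 to 22 and X, and opened shares range from 2.30% on chromosome 19 to 12.3% on chromosome 4.

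Opened regions lay farther from constitutively open chromatin than closed ones. The median distance between midpoints to the nearest region shared by all 4 lists was 32.7 kb for opened and 15.5 kb for closed regions, and 13.2 kb for shared regions themselves. Within 10 kb of a shared region lay 19.8% of the opened and 38.4% of the closed regions. Each set lay nearer to its own kind than to the other, although the sets are of similar size. The nearest opened region was at a median of 87.8 kb from an opened region and 153.0 kb from a closed one. The nearest closed region was at 94.1 kb from a closed region and 153.8 kb from an opened one.

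At regions open in all 4 lists the position of the summit did not set the groups apart. In 37401 regions with exactly 1 peak in each list, the median distance between summits was 27 to 28 bp over the 4 pairs of a treated and an uninduced library. It was 29 bp between the treated replicates and 24 bp between the uninduced replicates.

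The highest-ranked regions of each pattern show the range of these outcomes, with coordinates in build hg19 and folds as the authors gave them. Among regions opened against both vehicle states, chr13:105137921-105138415 had folds of 11.8 and 11.1 in the treated lists. All 3 parental libraries with WX-02-23 held it, as did both of the C258A-FOXA1 line with the probe. Apart from these and the treated pair, no library did. The region chr13:67660373-67660720, with folds of 11.04 and 10.2, had the same pattern across those libraries. The top-ranked opened region, chr1:227632415-227632876, with folds of 8.02 and 8.83, was also held by 2 of 3 parental DMSO libraries and by both DMSO libraries of the C258A-FOXA1 line. The regions chr11:64175072-64175525 and chr5:172214062-172214452 were held by no parental library.

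Regions closed against both vehicle states were mostly of low rank, and the 5 named here are the strongest of them. The top-ranked, chr10:73391195-73391778, had folds of 15.8 and 16.0 without Dox and 12.5 and 13.4 with Dox and DMSO. The second, chr20:9423253-9423905, had folds of 14.6 and 14.7 without Dox and 20.3 and 18.2 with Dox and DMSO. Both were held by every parental library, WX-02-23 included, and by all 6 libraries of the C258A-FOXA1 line and both PladB libraries of the WT-FOXA1 line. Both treated libraries of the WT-FOXA1 line were thus alone among the 29 in lacking them. The others were chr8:121493381-121493766, chr6:155337158-155337548 and chr14:26311438-26312035, and 1 parental WX-02-23 library lacked the chromosome 6 region.

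Among Dox-gained regions, the top-ranked kept ones had mean percentiles of 88.1 to 91.3 and the top-ranked missing ones 73.4 to 78.4. The kept region chr9:18085316-18085962 had folds of 15.7 and 18.3 with Dox and DMSO and of 15.4 and 15.1 with Dox and WX-02-23. Like chr1:99371471-99372059, it was held by all 6 C258A-FOXA1 libraries and by no parental library. The third kept region, chr1:78503571-78504653, was held by every parental library but 1. The missing region chr5:116843060-116843450 had folds of 10.8 and 12.9 with Dox and DMSO, was held by all 6 C258A-FOXA1 libraries and by no parental library, and had no peak in either treated library. The other missing ones were chr13:84742751-84743213 and chr11:89000743-89001363. Of these, the chromosome 11 region was held by 2 of 3 parental DMSO and none of 3 parental WX-02-23 libraries. Dox-lost regions had low ranks, with median percentiles in the uninduced lists of 21.0 for those present with WX-02-23 and 15.5 for those missing. The top-ranked present ones, chrX:111600775-111601155, chr1:121386177-121386459 and chr9:125924556-125924993, had mean percentiles of 46.3 to 46.8 in the lists that hold them. Of these, the chromosome 1 region was held by no parental library, and the others by all 3 parental DMSO libraries. The top-ranked missing ones were chr9:92221494-92221693, chr8:74390541-74390795 and chr6:108997860-108998084, with mean percentiles of 49.2 to 54.4 in the uninduced lists. The chromosome 8 region was held by 3 of 3 parental DMSO and none of 3 parental WX-02-23 libraries.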

How the data were processed

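A commercial ATAC-seq kit was used, per the labels' protocols. Bowtie2, MACS2 and build hg19 are listed by the submitters' processing notes. For options, duplicates and transposase offsets, nothing is given in the sources used here. The authors deposited 1 peak list per library, not pooled, with a score, a fold enrichment (a ratio), the −log10 p-value, the −log10 q-value and the summit distance per peak. The score is 10 times the −log10 q. Fold and p-value served only for ranking, filtering and description inside 1 list.

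Chromosomes 1 to 22, X and Y were kept. Regions prone to artefacts, such as repeats, were not filtered out here. Overlapping or touching peaks were merged into regions, and at least 1 bp of overlap with a peak counted as holding the region. Absence of a peak can mean openness too low to be called at that library's depth. The background in reads per base was taken from the even steps of the fold values (tolerance 0.0001, with the Poisson p-value within 0.01 in −log10), on which 14.3% to 25.2% of peaks per list lay. It was 0.546 to 1.502 over 29 lists of 62832 to 98193 peaks.

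Groups were taken from the labels. Single values were tested over libraries by exact permutation (two-sided), with Benjamini-Hochberg adjustment over 7 tests and a threshold of 0.05. Counts of regions were not tested. Named regions were the top ranks by the mean, over the lists that hold a region, of its percentile in the authors' p-values: 5 opened and 5 closed against both vehicle states, and 3 of each Dox-gained or Dox-lost kind. Members, sets and alternatives were chosen with earlier results of these data known. Alternatives were lists of equal length, a q-value of 1e-05, a fold of 6, 50% coverage of a region, windows of 100 bp around summits, a merge of all 29 lists, all sequences, looser calls, fewer reference groups, a replicate block, and leaving out each library. Motif, promoter and gene analyses were not made, since no hg19 genome or annotation was used here. Merging, overlap and counting were tested on simulated data and compared with bedtools 2.31.1. Scripts ran in Python 3.11.15 with scipy 1.17.1, numpy 2.4.6, pandas 2.3.3 and matplotlib 3.10.9.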

Additional observations from a re-analysis of the deposited data

How the results depend on the processing

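Over 13 results, 224 alternative values were computed. No direction reversed, 191 values kept their side of the threshold or stayed within tolerance, 27 moved further, 4 lost and 2 gained a call. Tolerance was 1.5 times for counts and 1 SD over pairs for similarity. Tests of 2 against 2 libraries cannot pass 0.05 and say nothing about stability. The 191 values include some under a replicate block that are fixed by construction. Equal lists were not run for peak number, which they fix. Allowing 1 treated library to differ gave 17824 opened and 15151 closed regions against uninduced cells, and 5643 opened and 10669 closed against both vehicle states. A fold of at least 6 gave 3455 and 509 opened regions and a within-group excess in similarity of 0.121. Lists of equal length gave 2259 opened and 1903 closed regions against both vehicle states, a similarity of the treated lists to the uninduced minus that to the induced vehicle of -0.0385, and -16.5 points at the closed set in parental cells. The Jaccard index over regions gave 0.146 and -0.0279 for the 2 similarity results. With parental DMSO libraries alone, the difference at the opened set was 21.0 points, and 3 against 3 libraries cannot pass the threshold.

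Leaving out 1 library at a time gave 8612 to 13988 opened and 10359 to 15084 closed regions against uninduced cells. It gave 1179 to 3862 opened and 5306 to 8464 closed regions against both vehicle states. The similarity results ranged from 0.0822 to 0.140 and from -0.0186 to -0.00284. The parental differences ranged from 15.7 to 22.9 points at the opened and from -6.34 to -2.45 points at the closed set. Without any 1 of the 3 parental WX-02-23 libraries the adjusted p at the opened set was 0.0769 by exact permutation over the fewer arrangements.

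Replicate numbers are shared between groups. Between treated and uninduced libraries, the deviations of same-numbered libraries had a correlation of 0.0028 across 109421 regions. Whether same-numbered libraries shared a preparation was not tested. A replicate block cannot change the difference in peak number (-3181) or the opened and closed counts (7851, 7569, 1133 and 4449). It also cannot change the parental-set differences of 22.7 and -24.8 points. These values are fixed by construction and say nothing about stability. Restricted to same-numbered pairs, the similarity results were 0.110 and -0.0106.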
